A study of Mus musculus with 2 samples.

Results

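Described here are 10 genes of the acute-phase and inflammatory response, out of 28001 features counted, in the regenerating digit tip of the adult mouse: Saa3, Hp, Lcn2, Slpi, Il6, Il11, Il1b, Il33, Ptgs2 and Socs3. The set was drawn up because Saa3, Hp and Slpi mark states of the mesenchyme and differ between the libraries, so their mesenchymal levels and their difference between libraries are given as description and support nothing further. The data are droplet single-cell transcriptomes, in which each captured molecule is counted by a unique molecular identifier (UMI), from 2 libraries, 1 for each of 2 mouse lines. The Lmx1b library came from Lmx1bCreERT2;R26-LSL-TdT mice and the Pdgfra library from PdgfraCreERT;R26-LSL-TdT mice, all aged 10 to 12 weeks. Both lines carry a tamoxifen-dependent Cre recombinase, driven by Lmx1b (a homeodomain gene of the dorsal limb) or by Pdgfra (a growth factor receptor gene of most fibroblast-like cells), and a tdTomato reporter at Rosa26 that Cre switches on for good. Both received 3 mg of tamoxifen a day on 4 days, digits were amputated 10 days later, and the tissue beyond the cut was taken 14 days after amputation. Neither an uninjured digit nor an untreated animal is among the samples analysed here, and no sort on tdTomato is described. How many mice gave each library was not given in the sources used here, and since each line gave 1 library, no difference could be tested against a spread between replicates.

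Acute-phase proteins are secreted in large amounts after tissue damage. Interleukin 6 and its relative interleukin 11 signal through the shared receptor chain Il6st to the transcription factor Stat3, whereas interleukin 1 signals to NF-kB, and both routes act together with C/EBP factors on acute-phase genes such as Saa3, Hp and Lcn2. Socs3 is a direct target of Stat3 whose product blocks the receptor complex, so its RNA is a common readout of this signalling. Ptgs2 makes the precursor of the prostaglandins, Slpi is a secreted inhibitor of neutrophil proteases, and interleukin 33 is an alarmin stored in the nuclei of barrier and stromal cells. In the digit tip these signals accompany the wound healing and bone breakdown that come before the blastema, the mass of progenitor cells from which the tip regrows.

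After cell filters the Lmx1b library held 2744 cells at a median of 17084 UMIs and the Pdgfra library 2309 cells at 9774. Cells were clustered without the 10 genes, so that none of them placed a cell, and clusters were gated into 13 classes by fixed markers. Mesenchymal cells, bone lineage included, numbered 1006 and 629 in the Lmx1b and Pdgfra libraries, endothelial cells 606 and 331, mural cells (pericytes and vascular smooth muscle) 371 and 308, cartilage cells 143 and 113, macrophages 108 and 115, and neutrophils 21 and 4. Median depth was alike in mesenchymal cells, 26242.5 and 26138 UMIs, but not in cartilage cells, 41279 and 5007. A level below is the sum of a gene's UMIs over the cells of a class in CPM, that is, per 1000000 of all their UMIs, with an exact 95% Poisson interval in brackets. A fold carries the exact 95% interval of a ratio of 2 Poisson counts. All intervals cover counting error only and leave out how far cells or animals vary. A gene counted as measured at 5 CPM or more over both sides of a comparison, and as apart at 2-fold or more.

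All 10 genes were found by symbol. On GRCm38 Saa3 lies on chromosome 7 at 46711998 to 46715700 and Hp on chromosome 8 at 109575128 to 109579172, both on the minus strand. Slpi spans 164354070 to 164389095 on chromosome 2, minus strand, with the microRNA gene Mir7678 inside its exons, and Il6 lies at 30013114 to 30019981 on chromosome 5, plus strand. Exons of Il1b overlap those of the antisense gene Il1bos, and whether counting used strand was not given in the sources used here. RefSeq promoter windows (GRCm38.p6, 250 bases before to 50 after a start) matched 9 of the 10 genes, all but Hp. They were searched on both strands for the letters TTNNGNAA (a C/EBP pattern), TTCNNNGAA (STAT), TGANTCA (AP-1) and an NF-kB pattern. The C/EBP letters were in the windows of 7 of the 9 genes and in 40.7% of all 32851 promoters, STAT in 1 (Socs3) against 8.30%, AP-1 in 2 (Il6 and Il11) against 7.81%, and NF-kB in 1 (Il6) against 4.51%. Shown are the stretches upstream of Saa3 and Slpi, which were high in the same few cells described below, and of Il6, whose window held 3 of the 4 patterns. They read 5′ to 3′ on the gene's strand, chr7:46715701-46715926 (minus), chr2:164356508-164356757 (minus) and chr5:30012864-30013113 (plus). Capitals mark matches, all C/EBP in Saa3 and Slpi, and AP-1, C/EBP and NF-kB in that order in Il6. A match is a string of letters, not a shown binding site.
Saa3: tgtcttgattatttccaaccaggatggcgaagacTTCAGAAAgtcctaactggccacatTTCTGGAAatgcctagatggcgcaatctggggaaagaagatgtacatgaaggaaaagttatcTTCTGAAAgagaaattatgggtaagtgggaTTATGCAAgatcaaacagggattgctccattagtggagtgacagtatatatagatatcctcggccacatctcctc
Slpi: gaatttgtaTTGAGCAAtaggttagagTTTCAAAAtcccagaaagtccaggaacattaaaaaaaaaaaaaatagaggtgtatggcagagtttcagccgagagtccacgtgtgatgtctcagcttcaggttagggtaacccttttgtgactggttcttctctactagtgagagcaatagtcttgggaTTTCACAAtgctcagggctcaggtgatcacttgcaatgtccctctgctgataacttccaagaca
Il6: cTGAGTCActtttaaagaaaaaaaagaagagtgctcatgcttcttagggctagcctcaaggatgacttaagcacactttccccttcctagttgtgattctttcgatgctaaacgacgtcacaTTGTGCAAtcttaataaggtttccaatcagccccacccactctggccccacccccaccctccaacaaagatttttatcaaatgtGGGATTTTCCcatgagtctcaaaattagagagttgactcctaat

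Saa3, a serum amyloid A protein made outside the liver, was a mesenchymal transcript in the Lmx1b library and scarce elsewhere. Mesenchymal cells held 98.0% of its 6498 UMIs there, at 225 CPM (219 to 230). In the Pdgfra library mesenchymal cells stood at 7.13 CPM (6.0 to 8.42), and 69.1% of the 459 UMIs lay in the cartilage class. Of those 317 cartilage UMIs, 316 came from 2 cells. Few cells carried Saa3 in either library. At least 1 Saa3 UMI was found in 8.15% of Lmx1b and 1.59% of Pdgfra mesenchymal cells, against 1.98% and 0.302% of endothelial cells, a class taken as background at median depths of 12596.5 and 10151 UMIs. Thinned to 5000 UMIs a cell, the mesenchymal shares were 4.30% and 0.735% and the endothelial ones 0.353% and 0.

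Hp encodes haptoglobin, which binds free haemoglobin. Its highest level was in neutrophils, 1018 CPM (806 to 1269) in 21 Lmx1b cells and 1412 CPM (822 to 2260) in the 4 Pdgfra cells. Mesenchymal cells reached 71.6 and 8.98 CPM, and macrophages 37.0 CPM (30.3 to 44.7) and 30.8 CPM (23.8 to 39.2). Neutrophils and macrophages thus had intervals that overlapped between the libraries, while endothelial cells, at 0.199 and 0.435 CPM, marked the background.

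Slpi was highest per class in neutrophils and cartilage. Neutrophils stood at 1366 and 3073 CPM in the Lmx1b and Pdgfra libraries, and cartilage cells at 880.3 CPM (855 to 906) and 534 CPM (509 to 560). By number of molecules cartilage came first, holding 50.8% of the Slpi UMIs of the Lmx1b library and 58.6% of those of the Pdgfra library, with 1 or more UMIs in 86.0% and 54.9% of its cells. Endothelial shares were 3.96% and 4.83%. Slpi was thus the only one of the 10 whose UMIs lay mostly in cartilage in both libraries.

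Lcn2, the iron-scavenging lipocalin 2 of neutrophil granules, was almost silent in the mesenchyme. Only 9 of its UMIs fell in the 1006 Lmx1b mesenchymal cells and 8 in the 629 Pdgfra ones. Neutrophils held 2848 CPM (2485 to 3249.5) in the Lmx1b library and 914 CPM (456 to 1635) in the Pdgfra library. Of the Lmx1b neutrophils 1 cell held 112 of the 221 UMIs, and the other 20 cells stood at 1547 CPM. Another source was seen only in the Lmx1b library. Cluster 6, 63 cells at a median of 933 UMIs and none of the other library, carried Lcn2 at 4119 CPM. After Lcn2 it was led by the glial genes Mt3, Aldoc, Gfap and Slc1a2, with no UMI of Ptprc or S100a8. It was left unnamed because no marker list passed the naming rule: the highest-scoring list, erythroid, had 1 marker raised.

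**Figure D1:**
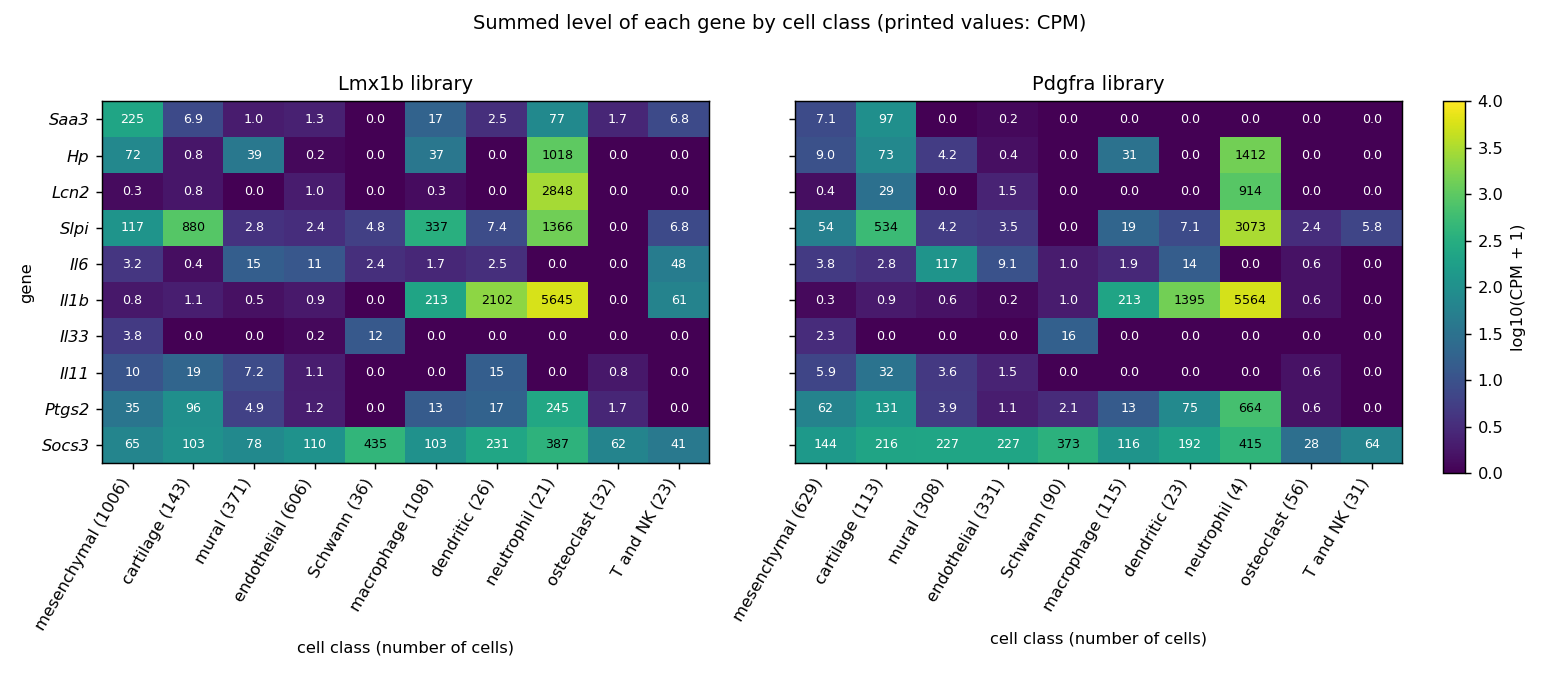
Summed level of the 10 genes (rows) in each cell class (columns, with the number of cells) of the Lmx1b library (left) and the Pdgfra library (right). Printed values are CPM and the colour is log10(CPM + 1). Saa3 is at 225 CPM in Lmx1b and 7.13 CPM in Pdgfra mesenchymal cells, Il1b is over 200 CPM in the columns of neutrophils, dendritic cells and macrophages, and the Pdgfra neutrophil column rests on 4 cells.

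The cytokine genes each had their own cell classes. Il6 was highest in mural cells, at 14.7 CPM (11.7 to 18.1) in Lmx1b and 117 CPM (106 to 129) in Pdgfra cells, leaving aside 7 UMIs in 1 of the 23 Lmx1b T and NK cells. Pdgfra dendritic cells had 4 UMIs in 2 of 23 cells, 14.2 CPM (3.87 to 36.4). Endothelial cells stood at 11.1 and 9.13 CPM, levels that did not differ beyond counting error, with a UMI in 11.9% and 6.34% of cells against 2.78% and 3.48% of macrophages at deeper medians of 26935 and 19904 UMIs. Mesenchymal cells stood at only 3.24 and 3.85 CPM. Il11, a relative of Il6 produced by connective tissue, was highest in cartilage, at 18.9 CPM (15.4 to 23.1) and 32.2 CPM (26.4 to 39.0), and stood in mesenchymal cells at 10.1 and 5.85 CPM. Its 6 UMIs in Lmx1b dendritic cells, 14.9 CPM, lay in 1 cell. Macrophages held no Il11 UMI in either library, which allows up to 1.05 CPM in the Lmx1b and 1.40 CPM in the Pdgfra one (3 counts).

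Il1b, the interleukin made by activated myeloid cells, was held by neutrophils at 5645 and 5564 CPM, dendritic cells at 2102 and 1395 CPM and macrophages at 213 CPM in both libraries. Those 3 classes carried nearly all of it, and the mesenchyme only 0.811 and 0.257 CPM. In Pdgfra macrophages 266 of the 456 Il1b UMIs came from 1 cell, and the other 114 cells stood at 89.8 CPM, so the match of the summed levels rests on that cell. Il33 was sparse, with 117 UMIs in all Lmx1b cells and 59 in all Pdgfra cells. Mesenchymal cells held 91.5% and 74.6% of them, and Schwann cells, the glia of peripheral nerve, the next largest share, at 12.0 CPM (3.90 to 28) and 15.7 CPM (8.76 to 25.8).

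In Ptgs2, the cyclooxygenase 2 gene, cartilage stood above mesenchyme, as it did for Slpi and Il11, and neutrophils were the highest class. Ptgs2 reached 96.3 CPM (88.0 to 105) and 131 CPM (119 to 144) in cartilage and 34.9 and 61.5 CPM in mesenchymal cells, against 1.20 and 1.09 CPM in endothelial cells. In neutrophils it stood at 245 CPM (147 to 382) and 664 CPM (287 to 1309), from 19 UMIs in 21 cells and 8 UMIs in 4 cells. Socs3 was the most widely found of the 10, with a UMI in 45.7% of Lmx1b and 44.9% of Pdgfra cells, against 4.35% of Lmx1b epithelial cells at a median of 7566.5 UMIs. Its highest level in a class of 20 or more cells was in Schwann cells, 435 CPM (374 to 503) and 373 CPM (335 to 413), and epithelial cells were lowest, with 4 UMIs in 92 Lmx1b cells.

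**Figure D2:**
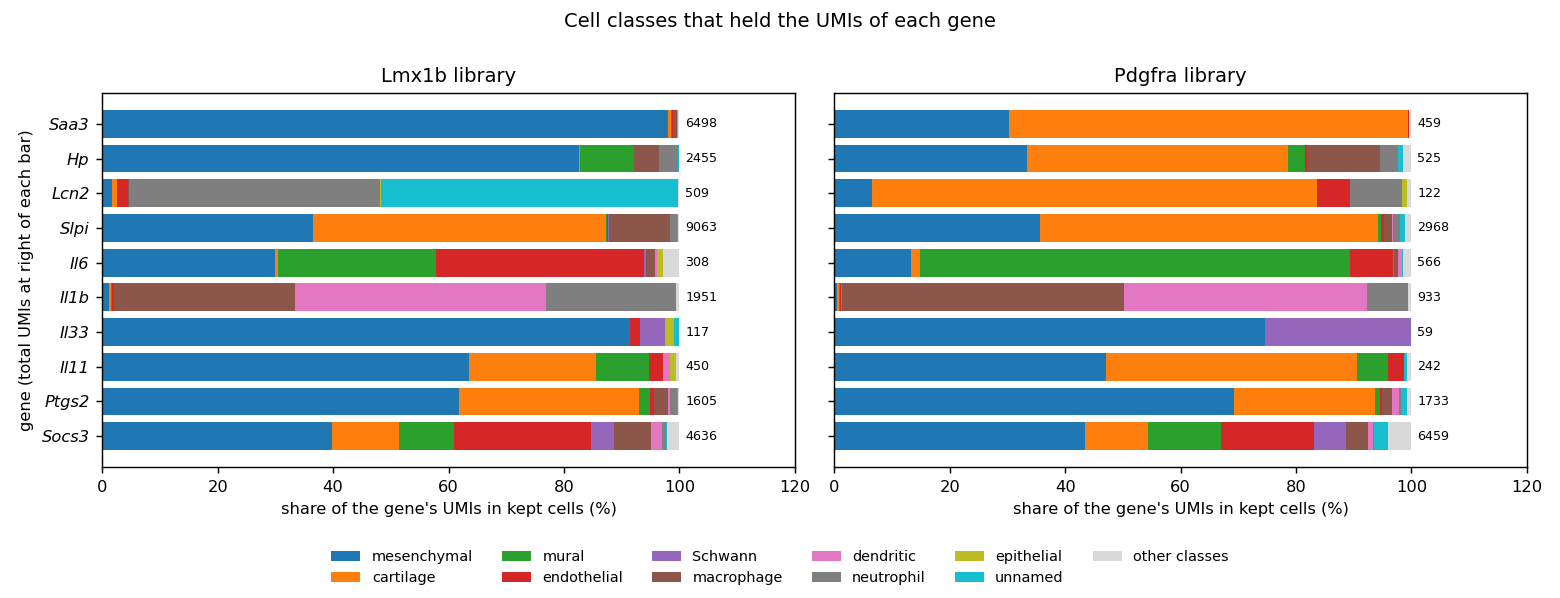
Share of each gene's UMIs (x axis, percent of the UMIs in kept cells) held by each cell class (colours), for the Lmx1b library (left) and the Pdgfra library (right), with the total UMIs at the right of each bar. Saa3 is 98.0% mesenchymal in the Lmx1b library. In the Pdgfra library 69.1% of it is in cartilage, where 2 cells hold 316 of the 317 UMIs. Mural cells hold 74.6% of the Il6 UMIs of the Pdgfra library against 27.3% of the other.

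Within the mesenchyme, 7 clusters were described by their leading genes: M0 (Cenpf, Ube2c, Top2a, cycling genes), M1 (C1qtnf3, Adamts18), M2 (Bglap, the osteocalcin gene of mature osteoblasts), M3 (Lgr5, Mfap4, Mest), M4 (Cyp2f2, Sfrp2, Epha5), M5 (Angpt2, Angptl7, Fmo2) and M6 (A2m, Mmp13, Wisp2). Saa3 was highest in M5, at 966 CPM (933 to 1001) in 150 Lmx1b cells, then in M0 at 808 CPM in 43 cells, in M6 at 506 CPM in 127 cells and in M2 at 78.8 CPM in 155 cells. M1, M3 and M4 lay between 1.64 and 2.00 CPM in that library. The order of M0, M5 and M6 rests on 9 cells described below. Without them M5 stood at 119 CPM, M6 at 58.4 CPM, below M2, and M0 had 3 Saa3 UMIs in 40 cells. In the Pdgfra library M2 stood at 72.2 CPM and M5 at 57.3 CPM, and none of the other clusters passed 4.13 CPM. The Saa3 level of Pdgfra M2 came mostly from 1 cell with 83 of the 91 UMIs, without which it was 6.50 CPM. In Lmx1b M2 1 cell held 131 of the 315 UMIs. The other 154 cells stood at 46.8 CPM, below the 58.4 CPM of M6.

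Hp followed another order. M6 led in both libraries, at 312 CPM (292 to 333) in the Lmx1b and 33.6 CPM (20.8 to 51.4) in the Pdgfra library, and 61.4% and 43.3% of its cells had a UMI, more than in any other mesenchymal cluster and against 0.330% and 0.604% of endothelial cells. Without the 9 cells, 2 of which lay in it, Lmx1b M6 was at 141 CPM, still above the other clusters. With them Lmx1b M5, which also held some of the 9 cells, stood at 152 CPM (139 to 166). In M3, where Lmx1b cells stood at 45.0 CPM and Pdgfra cells at 9.44 CPM, 1 Lmx1b cell held 219 of 330 UMIs, and the rest stood at 15.3 CPM. Slpi was highest in the Bglap cluster. M2 led in both libraries, with 310 CPM (293 to 327) and 313 CPM (283 to 346), a fold of 0.989 (0.882 to 1.11), and 60% and 70.5% of M2 cells had a UMI. M1 followed in the Pdgfra library at 106 CPM. In the Lmx1b library M0 (257 CPM), M6 (175) and M5 (166) stood above M1 (62.9), but without the 9 cells M6 was at 108 CPM, M5 at 5.86 CPM and M0 at 3.49 CPM.

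Il33 was a gene of M5. Of its mesenchymal UMIs, 106 of 107 in the Lmx1b and 33 of 44 in the Pdgfra library lay there, at 33.1 CPM (27.1 to 40) and 52.5 CPM (36.1 to 73.7). Its 4 highest Lmx1b M5 cells held 58 of the 106 UMIs. M5 was likewise the highest mesenchymal cluster for Il6, at 16.5 and 12.7 CPM. Ptgs2 was highest in M1, at 65.6 CPM (60.1 to 71.4) and 114 CPM (105 to 123), and lowest in M5, at 6.55 and 4.77 CPM. Il11 ranged over the clusters from 4.00 to 27.1 CPM in the Lmx1b library and from 1.65 to 9.40 CPM in the Pdgfra library. Socs3 was highest in M6 of the Lmx1b library, at 193 CPM, and in M4 of the Pdgfra library, at 309 CPM.

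**Figure D3:**
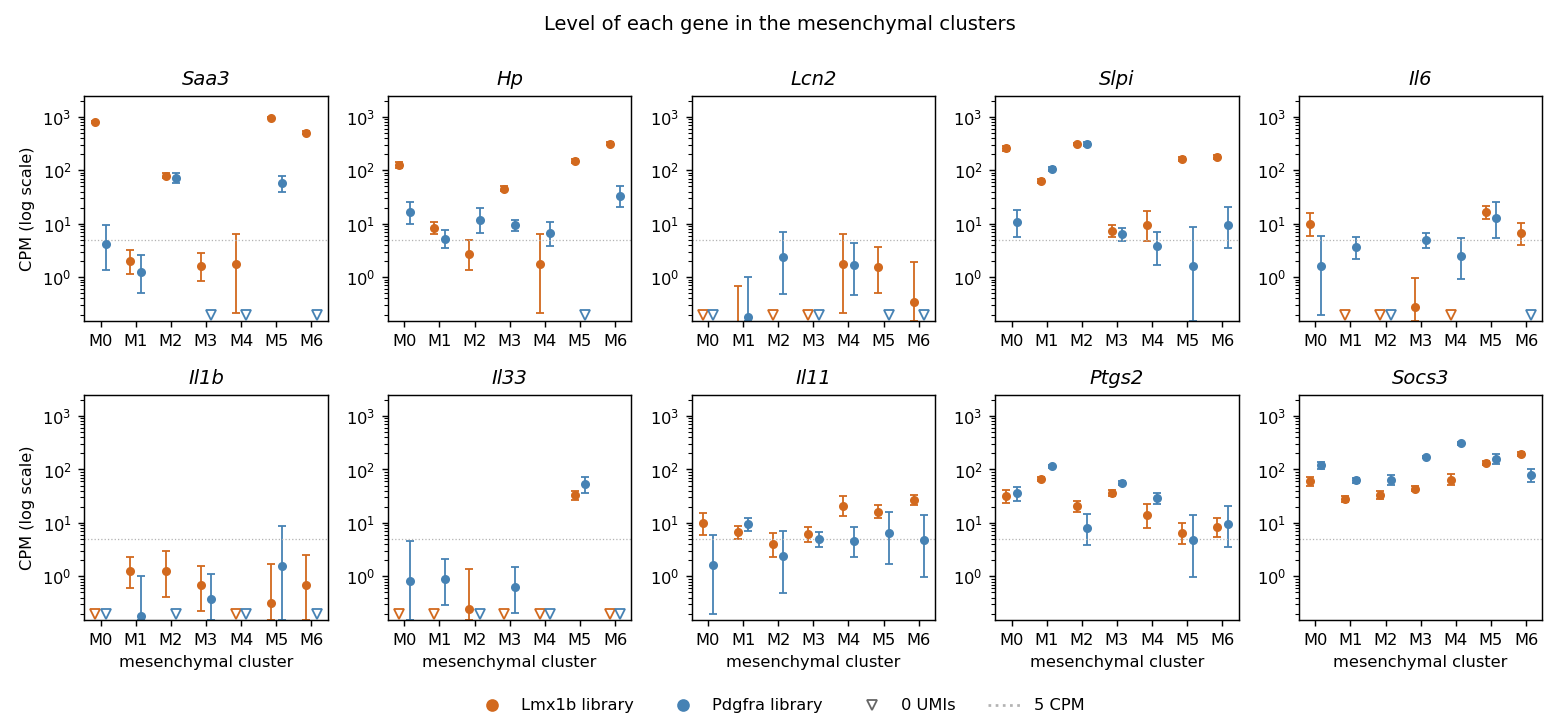
Level of each gene (y axis, CPM on a log scale) in mesenchymal clusters M0 to M6 (x axis) of the Lmx1b and Pdgfra libraries. Points are summed levels with exact 95% Poisson intervals that end at the bottom of the axis, triangles mark 0 UMIs, and the dotted line is 5 CPM. Slpi is level between the libraries in M2 (310 and 313 CPM), and Saa3 in M5 is at 966 and 57.3 CPM, the former 119 CPM without the 9 cells rich in Saa3.

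Most of the Saa3 of the whole data set came from 9 cells. Each had at least 200 Saa3 UMIs, a limit set after the values were seen: the lowest of the 9 had 255, the highest 1207, and the highest mesenchymal cell below the limit had 131. They were 0.895% of the 1006 mesenchymal cells of the Lmx1b library and held 86.3% of their Saa3 UMIs, 57.9% of their Hp UMIs and 35.9% of their Slpi UMIs. Of the 9, 4 lay in M5, 3 in M0 and 2 in M6, and none was labelled by tdTomato. Every one of them had Hp, from 34 to 435 UMIs, and Slpi, from 46 to 250 UMIs.

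The same cells were set apart in other genes. Since Saa3 chose them, the following is description. Mmp13, a collagenase of bone and cartilage remodelling, was at 8426 CPM in the 9 cells and 438 CPM in the other 997, and it had 216 UMIs or more in each. Cp, the copper-carrying acute-phase protein ceruloplasmin, was at 562 and 27.2 CPM, and Ccl2, a chemokine that draws monocytes, at 292 and 15.1 CPM. Among 9 other acute-phase and defence genes measured, 2 were higher by 2-fold or more, Cp and C3 (74.8 and 8.23 CPM). As many, 2, were lower: Serpina3n (9.65 and 28.8 CPM) and A2m (2.41 and 18.8 CPM). Of 8 measured NF-kB and C/EBP regulators, 5 were higher by 2-fold or more and none lower: Cebpb (494 and 127 CPM), Nfkbia (403 and 121), Nfkbiz (118 and 20.2), Bcl3 (57.9 and 11.7) and Nfkb2 (31.4 and 12.4). Of all measured features 7.89% were higher and 10.5% lower by that much in the 9 cells. Of the 10 genes 6 were measured, and 5 were higher. Besides the 3 above these were Socs3, at 232 and 62.5 CPM, and Il11, with 11 UMIs in 5 of the 9 cells, 7 of them in 1 cell. Il6, not measured by the limit of 5 CPM, had 28 UMIs in 5 of the 9 cells, 17 of them in 1 cell, 67.5 against 2.29 CPM. Ptgs2, with 9 UMIs, was not apart, and Il33, Il1b and Lcn2 had none.

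Summed over the 9 cells, cycling genes were high as well, 5 of 6 by 2-fold or more, at 685 CPM against 203. This did not hold in each cell: Mki67 and Ube2c had UMIs in only 3 of the 9, Ccnb1 in 4, and Top2a and Cdk1 in 6. The macrophage markers of the 9 cells summed to 9.65 CPM, below the 16.9 CPM of the other mesenchymal cells, and their neutrophil markers to 38.6 CPM against 5.44. All of the latter was S100a8, with 16 UMIs in 8 of the 9 cells. S100a9, Retnlg and the other neutrophil markers of the list had no UMI in them. Mesenchymal markers summed to 52821 CPM, against 109828. The part of cycling or of neutrophil RNA in the high Saa3 was not tested. The median depth of the 9 cells was 34398 UMIs against 26120, and their mitochondrial share ran from 4.48 to 9.79%.

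**Figure D4:**
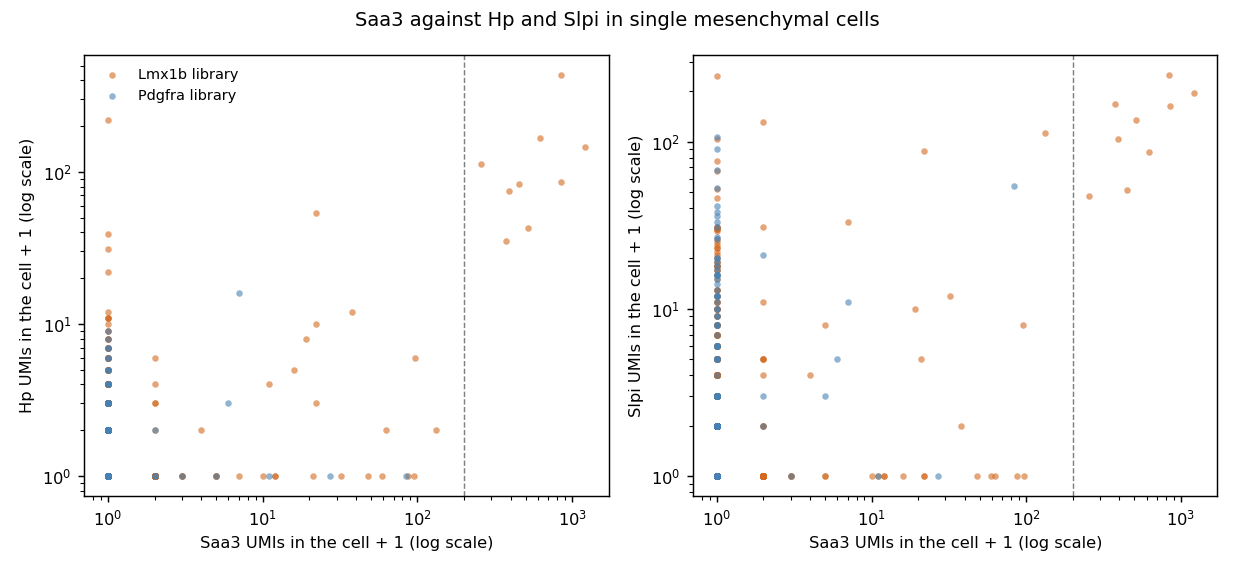
Saa3 UMIs (x axis) against Hp UMIs (left) and Slpi UMIs (right) in single mesenchymal cells of both libraries, all as UMIs + 1 on log scales. The dashed line is 200 Saa3 UMIs: 9 Lmx1b cells and no Pdgfra cell lie to its right, each with at least 34 Hp and 46 Slpi UMIs.

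Below that limit Saa3 and Hp were found together more often in thinned cells, but not at full depth. Among 921 other Lmx1b mesenchymal cells thinned to 5000 UMIs, 7 of the 31 with Saa3 had Hp, 22.6% (9.59 to 41.1), against 7.08% (5.48 to 8.97) of cells without Saa3. For Slpi the shares were 19.4% (7.45 to 37.5) and 11.3% (9.34 to 13.6), and for Ptgs2 6.45% and 9.33%, with intervals that overlapped. With the 9 cells, 16 of 40 cells with Saa3 had Hp and 15 of 40 had Slpi. At full depth 20.4% of the 997 other cells had Hp, and the share was similar among those with Saa3. None of these shares was taken with the same mix of clusters.

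Between the libraries, 4 of the 6 genes measured in mesenchymal cells were apart, Saa3, Hp and Slpi higher in the Lmx1b and Socs3 in the Pdgfra library, where 1.88% of all measured features were apart. The list was chosen on this contrast, so nothing is read from that count. Saa3 was 31.5-fold higher (26.6 to 37.5), Hp 7.97-fold (6.82 to 9.35) and Slpi 2.15-fold (2.00 to 2.30). Without the 9 cells, Saa3 was at 31.2 against 7.13 CPM, 4.37-fold (3.65 to 5.27), Hp 3.41-fold (2.89 to 4.03), and Slpi, at 1.40-fold (1.30 to 1.5), was no longer apart, so that 3 of 6 genes were, beside 1.84% of all measured features. When both libraries were given the same mix of mesenchymal clusters, with the 9 cells kept in, Saa3 was 13.1-fold and Slpi 1.59-fold, the latter again not apart. No value was computed with the same mix and without the 9 cells. Of the bone markers 2 of 7 were higher in the Lmx1b library and none in the other, and the part of a larger bone share in the Slpi difference was not tested. Socs3 was at 65.0 CPM (62.0 to 68.0) in Lmx1b and 144 CPM (139 to 149) in Pdgfra mesenchymal cells, and in the latter it was 2.30-fold higher without those cells.

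The gap differed from cluster to cluster, untested. Saa3 in M6 was at 506 CPM in the Lmx1b library and had no UMI in the 30 cells of the Pdgfra library, at least 105-fold higher by the floor of 3 counts, but at least 12.2-fold without 2 of the 9 cells, at 58.4 CPM. In M5 it was 16.9-fold higher (12.2 to 24.1) and Hp, with 488 UMIs against 0, at least 31.9-fold. Without 4 of the 9 cells these were 2.08-fold (1.48 to 3.02) and, with 61 Hp UMIs, at least 4.16-fold. In M0 the direction turned: without 3 of the 9 cells Hp had 3 UMIs among Lmx1b cells and 20 among Pdgfra cells, a ratio of 0.106 (0.0201 to 0.356), and Slpi 6 and 13 UMIs, a ratio of 0.325 (0.101 to 0.916). In M2 Saa3 differed by 1.09-fold (0.862 to 1.39), but 1 cell held 131 of the 315 Lmx1b UMIs and 1 cell 83 of the 91 Pdgfra UMIs. Without these cells M2 stood at 46.8 CPM in the Lmx1b and 6.50 CPM in the Pdgfra library. M5 and M6 of the Pdgfra library held only 32 and 30 cells, and 10.1% and 15.5% of all measured features were apart there, beside 4 of 8 and 5 of 7 of the genes described. In M0 5 of 7 measured genes were apart, in M1 1 of 5, in M2 1 of 4, in M3 2 of 5 and in M4 5 of 5, beside 7.74%, 3.39%, 5.45%, 1.59% and 6.22% of all measured features. Without the 9 cells the counts were 4 of 5 in M0, 4 of 8 in M5 and 5 of 7 in M6, beside 8.2%, 10.4% and 15.2%. Socs3 was lower in the Lmx1b library by the largest factor in M4, at 64.7 against 309 CPM, and in M3, at 44.0 against 171 CPM, but in M6 it was 2.46-fold higher there (1.83 to 3.36).

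Socs3 was lower in the Lmx1b library in other classes too. Endothelial cells had 110 CPM (103 to 116) against 227 CPM (214 to 242), and it was the 1 gene apart of 2 measured, beside 1.74% of all measured features. Mural cells had 78.1 CPM against 227 CPM, and cartilage 103 against 216. Macrophages, at 103 CPM (91.5 to 115) and 116 CPM (102 to 132), and Schwann cells, at 435 and 373 CPM, were not apart, and osteoclasts stood higher in the Lmx1b library, at 62.1 against 27.8 CPM. The 12 genes of the immediate early list, which rise with handling and dissociation of tissue as well as with signalling, moved with it. Their median log2 difference, Lmx1b over Pdgfra, was -0.55 in mesenchymal, -0.53 in endothelial, -0.60 in mural, -0.88 in cartilage cells and -0.10 in macrophages, where all measured features had medians between -0.11 and 0.06. The part of immediate early genes in the Socs3 difference was not tested, and digestion ran from 1 to 4 hours by the labels, with no time given per library.

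In mural cells 3 of the 4 measured genes were apart, beside 4.54% of all measured features. Hp was higher in the Lmx1b library, at 39.4 against 4.17 CPM, but 4 cells held 179 of its 226 UMIs there, and the other 367 stood at 8.44 CPM. Il6 was 8.0 times as high (6.32 to 10.2) in the Pdgfra library. Nearly all of that lay in 1 of 5 mural clusters, C19, led by Il6, Cxcl10 and Cxcl1, of 37 Lmx1b and 70 Pdgfra cells. Il6 there was at 50.4 CPM (35.1 to 70.1) in Lmx1b and 411 CPM (372 to 453) in Pdgfra cells, against 9.73 and 6.13 CPM in the other mural cells. Of the cells of C19, 40.5% and 60% had an Il6 UMI, at median depths of 18283 and 14251.5 UMIs, and after thinning 18.9% and 46.9%.

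Socs3 was high in the same cluster, at 302 CPM (263 to 346) and 676 CPM (626 to 729), against 47.2 and 57.8 CPM in other mural cells, folds of 6.40 (5.29 to 7.74) and 11.7 (9.78 to 14.0). Against other mural cells 3 of 4 measured genes were higher in Lmx1b C19 cells and both measured genes in Pdgfra C19 cells, where 4.98% and 4.61% of all measured features were higher. Ptgs2 had 16 UMIs there in Lmx1b cells and 10 in Pdgfra cells, 23.0 and 10.1 CPM against 2.38 and 1.53. Between the libraries all 5 genes measured in C19 were apart, Il6 and Socs3 higher in the Pdgfra and Hp, Il11 and Ptgs2 in the Lmx1b library, beside 13.8% of all measured features. Immediate early genes, which unlike the 10 could place cells in C19, were higher there as well, 11 of 12 and all 12, Fos at 1540 against 351 CPM and at 2745 against 296 CPM. Of 9 NF-kB and C/EBP regulators 3 and 6 were higher, with Nfkbia at 1160 against 279 CPM and at 812 against 98.8 CPM. In Lmx1b C19 cells dendritic markers summed to 324 CPM against 11.9 CPM in other mural cells and B cell markers to 44.6 CPM against 0.595, but in Pdgfra C19 cells to 47.6 and 0 CPM. The part of these in the Il6 level was not tested.

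**Figure D5:**
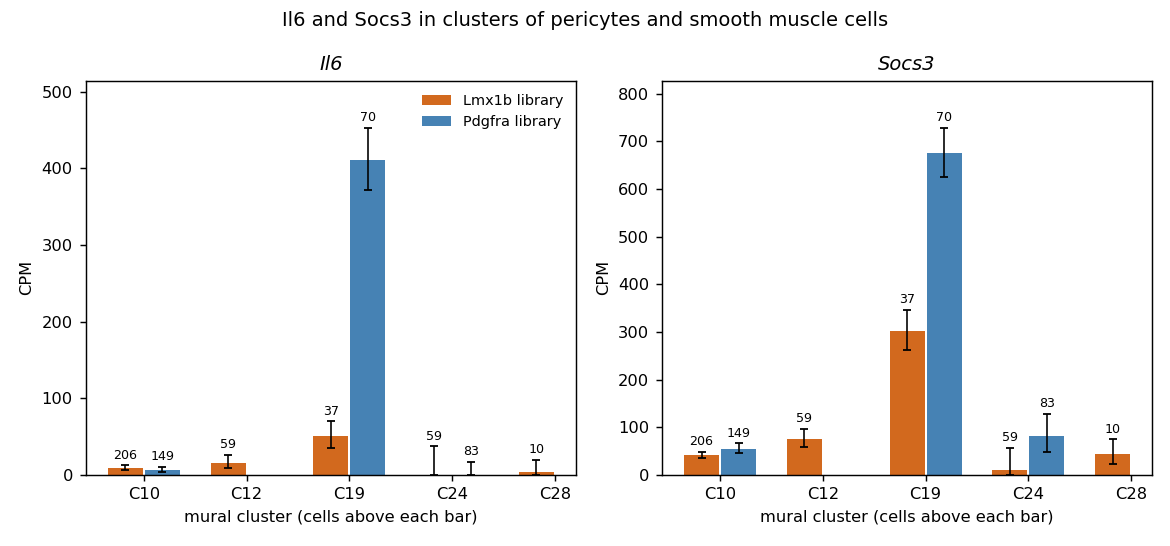
Il6 (left) and Socs3 (right) in the mural clusters (x axis) of both libraries, as summed CPM (y axis, from 0) with exact 95% Poisson intervals and the number of cells above each bar. Groups of under 5 cells are left out. Cluster C19 stands at 50.4 and 411 CPM for Il6 and at 302 and 676 CPM for Socs3, above the other clusters of its library.

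Macrophages and cartilage showed differences that rested on few cells. In macrophages 2 of 6 measured genes were apart, beside 5.93% of all measured features. Slpi stood at 337 CPM in the Lmx1b and 19.1 CPM in the Pdgfra library, but 3 Lmx1b cells held 913 of the 967 UMIs, and the other 105 stood at 19.5 CPM. The macrophage markers of those 3 cells summed to between 976 and 1348 CPM, against 10575 CPM in the other 105, and 1 of them had 299 UMIs of the neutrophil gene S100a8 and 43 of the 50 Saa3 UMIs of the class. In cartilage 4 of 7 measured genes, Saa3, Hp, Lcn2 and Socs3, were higher in the Pdgfra library, as were 3.99% of all measured features, with 5.01% apart in either direction. In its main cluster, C8, 4 of 7 were apart, beside 4.87%. In the whole cartilage class 2 Pdgfra cells held 316 of 317 Saa3 UMIs (244 and 72), with 211 and 20 of Hp and 75 and 10 of Lcn2. The other 111 Pdgfra cells of the class had 1 Saa3 UMI. Both had Col2a1, the main collagen of cartilage, at 93 and 64 UMIs, and Mmp13, at 85 and 3 UMIs. Their Scrublet doublet scores were 0.122 and 0.0923, against a median of 0.0633 in the other 111 cells. Saa1 and Saa2, liver acute-phase relatives of Saa3 that are near-identical to each other, had 51 and 35 UMIs in that class, and how their reads were split was not given in the sources used here.

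The smaller classes gave few values. In dendritic cells 2 of 5 measured genes were apart, Il6 with 1 against 4 UMIs and Ptgs2 with 7 against 21, beside 27.3% of all measured features. In Schwann cells none of 2 measured genes was apart, beside 13.9%, and in osteoclasts Socs3 was the only gene measured, beside 8.1% of features apart.

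A cell was called labelled at 1600 CPM of tdTomato or more, which 68 mesenchymal cells (6.76%) of the Lmx1b library and 520 (82.7%) of the Pdgfra library reached. In the Lmx1b library 3 of the 6 measured genes were lower in labelled cells and none higher, where 4.98% of all measured features were lower and 9.23% apart in either direction. Saa3 had 3 UMIs in the 68 labelled cells, 1.87 CPM, against 238 CPM, a ratio of 0.00785 (0.00162 to 0.0229), Hp 6.22 against 75.5 CPM, and Slpi 34.2 against 122 CPM. Without the 9 cells Saa3 was at 1.87 against 33.0 CPM, Hp at 6.22 against 32.1 CPM and Slpi at 34.2 against 78.4 CPM, all 3 still apart, beside 9.19%. With the same mix of clusters on both sides, which only M3 and M4 had the cells for, Hp alone was apart, at 8.66 against 40.4 CPM, and Slpi was at 4.01 against 6.88 CPM, with 2 and 12 Saa3 UMIs. Of the 325 unlabelled Hp UMIs in that comparison, 219 lay in 1 M3 cell. The other 252 M3 cells, labelled or not, stood at 15.3 CPM. Whether Hp stays apart without that cell was not tested. Labelled cells lay mostly in M4 (34 cells) and M3 (22 cells), the clusters with little Saa3 and Slpi, and none lay in M5. Within M3, labelled against unlabelled, Hp was at 10.6 and 48.5 CPM, the latter with the 1 cell of 219 UMIs named above, and Ptgs2 at 71.0 and 33.0 CPM, 2.15-fold higher (1.53 to 2.96), where 8.39% of features were apart.

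In the Pdgfra library 2 of 6 measured genes were apart, both lower in labelled cells, where 2.39% of all measured features were lower and 11.0% apart in either direction. Saa3 was at 2.91 CPM in the 520 labelled and 34.0 CPM in the 109 unlabelled cells, 83 of whose 90 UMIs were those of the M2 cell above. Slpi was at 28.8 against 217 CPM, a ratio of 0.133 (0.118 to 0.15). Within M2, where 11 cells were labelled and 33 not, Slpi had 14 UMIs in labelled cells and stood at 418 CPM in the others, a ratio of 0.0956 (0.0518 to 0.163), beside 19.1% of features apart, and within M1, with 82 and 28 cells, at 91.1 against 159 CPM, beside 5.69%. Hp, at 8.97 and 9.06 CPM, and Ptgs2, at 62.0 and 58.9 CPM, were level, and Socs3 was 1.80-fold higher in labelled cells (1.57 to 2.08). With the same mix of clusters on both sides, M0 to M4, Socs3 was only 1.13-fold higher, at 173 against 154 CPM. Hp was then at 7.79 against 12.7 CPM, not apart. Slpi, at 25.1 against 66.5 CPM, and Saa3, at 1.00 against 7.74 CPM with the M2 cell kept in, stayed apart.

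Receptors of these cytokines were found in several classes. Il6st, the shared signalling chain, was highest in endothelial cells, at 315 and 233 CPM, and Schwann cells, at 266 and 301 CPM, among classes of 20 or more cells and 5000 or more median UMIs, and was at 94.3 and 86.3 CPM in mesenchymal cells. Il6ra, the specific Il6 receptor, was found in dendritic cells at 104 and 156 CPM and macrophages at 53.0 and 73.3 CPM. Il11ra1, the Il11 receptor, was highest in mesenchymal cells, at 166 and 221 CPM. As the largest class they also held the most Il11 UMIs. By level, though, Il11 was higher in cartilage, at 18.9 and 32.2 CPM against 10.1 and 5.85 CPM in mesenchymal cells. Il1r1, the signalling receptor of interleukin 1, was at 94.5 and 98.1 CPM in mural cells, while the decoy Il1r2 was at 2139 CPM in Lmx1b neutrophils and the antagonist Il1rn at 91.7 and 70.5 CPM in macrophages. Osm, another ligand of the Il6st family, was in macrophages at 35.6 and 60.7 CPM, and its receptor Osmr in mural cells at 38.5 and 64.2 CPM.

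Between the libraries these genes were close to level in mesenchymal cells. None of 11 measured receptor and relay genes, of 8 NF-kB and C/EBP regulators, of 6 prostaglandin genes or of 6 other Socs family genes was apart. Of 9 other acute-phase and defence genes 2 were higher in the Lmx1b library, A2m (18.6 against 0.411 CPM) and Cp (35.0 against 10.7 CPM). Their median log2 difference was 0.17, and that of the receptors -0.02, against -0.01 over all 9957 features measured.

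The genes most like the 10 over 24 units (a class in a library, with 20 or more cells) were listed by Pearson's r of log2(CPM + 1), a description over units that share libraries and differ in depth. Il1b went with Gpr35, Cd300a and Nlrp3 (0.95, 0.95 and 0.94), and Lcn2 with the neutrophil genes Stfa2, Gm5483 and S100a9 (0.95, 0.95 and 0.94). Slpi was nearest to Sgms2 (0.88) and to the bone matrix gene Spp1 (0.82), Socs3 to Irf1 (0.84) and Stat3 (0.83), and Saa3 to Slpi itself (0.79). Over the 14 mesenchymal cluster and library units, Il6 was nearest to the chemokine genes Cxcl10 (0.96) and Cxcl1 (0.91), and Il33 to Gzmd (0.97) and Sparcl1 (0.93).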

How the data were processed

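The authors deposited unnormalized UMI counts for each gene in each barcode. Per the file headers they came from Cell Ranger 4.0.0. Per the labels' protocols the reference was mm10 plus tdTomato. How barcodes were called cells upstream was not given in the sources used here. The Lmx1b library had 5991 barcodes and 66867027 UMIs, the Pdgfra library 5032 and 49084751. Kept were barcodes of 500 or more genes whose mitochondrial share was at most 10%. Scrublet's own threshold marked 0 doublets, so the top-scoring 0.8% per 1000 barcodes were removed (49 and 65 after the filters). The libraries shared 10 barcodes, 1 of them kept in both.

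Both libraries were clustered together (scanpy 1.11.5, igraph 0.11.9) on log(1 + counts per 10000) of 2000 variable genes without the 10 described, with 30 components, 15 neighbours and resolution 1.0, and mesenchymal cells again with 20 components at 0.6. Clusters were named from 19 marker lists. A mesenchymal cluster led by haemoglobin and keratin genes at a median of 1387 UMIs was left out after the data were seen (34 and 33 cells). UMIs were summed and given as CPM, thinned shares at 5000 UMIs, and shares with Clopper-Pearson intervals (scipy 1.17.1). Fold bounds used a floor of 3 counts. The fold computation was tested on simulated counts. Named besides the 10 are pathway genes of 8 fixed lists at 5 CPM or more, the 3 most alike genes at 20 CPM or more, and leading genes of clusters. The 10 genes, the lists and the tdTomato limit were chosen with earlier results of these data known. Alternatives changed the filters (gene and mitochondrial limits together), clustering, gating, depth, summing or thresholds.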

Additional observations from a re-analysis of the deposited data

Results flagged for a closer look

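Of the Lcn2 UMIs of the Lmx1b library, 1090 of 1915 lay in barcodes with under 500 genes, which no comparison used, and only 26.6% lay in kept cells. In that library 329 barcodes held at least 2 of 5 glial genes (Gfap, Aldoc, Slc1a2, Aqp4, Mlc1, chosen after cluster 6 was seen), 213 of them under 500 genes, and they carried 1533 of the Lcn2 UMIs, 80.1%. The Pdgfra library had 4 such barcodes with no Lcn2 among 186 UMIs.

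Several differences between the libraries went one way in 1 class and the other way in another, and these differences between classes were not tested. Saa3, Lmx1b over Pdgfra, was 31.5-fold in mesenchymal cells and at least 12.5-fold in macrophages (by the floor of 3 counts, 43 of 50 UMIs in 1 cell), but 0.0708-fold in cartilage, where 2 Pdgfra cells held 316 of 317 UMIs. Hp was 7.97-fold in mesenchymal and 9.46-fold in mural cells but 0.0105-fold in cartilage, where the same 2 cells held 231 of 238 UMIs. Socs3 was 2.24-fold in osteoclasts, with 74 and 47 UMIs, but 0.452-fold in mesenchymal, 0.482-fold in endothelial, 0.344-fold in mural and 0.476-fold in cartilage cells.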

How the results depend on the processing

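With 1 library per line no value could be checked against replicates, and none has a test. Over 93 alternative counts of genes apart, 80 stayed within 1.5 times the count reported and 13 did not. The mesenchymal count, 4, ran from 3 to 5 over its 15 alternatives. The endothelial count, 1, became 0 after thinning to 5000 UMIs and 0 with 200 genes and 25% mitochondrial UMIs as limits, and 2 with 1000 genes and 5%. The mural count, 3, became 7 when cells were gated by marker score and 6 with 1000 genes and 5%. The macrophage count, 2, became 1 by marker score, 1 when measured meant 20 CPM, and 4 with 1000 genes and 5%. The count of labelled against unlabelled Lmx1b cells, 3, became 1 when both sides were given the same mix of mesenchymal clusters. The Pdgfra one, 2, became 4 with the mean of each cell's CPM, 1 at 20 CPM, 5 when 1 tdTomato UMI meant labelled, and 4 with 1000 genes and 5%. The cause of these moves was not tested, but the strictest filter left 921 and 476 cells. Of 533 other values 365 moved by less than counting error and 168 by more. In 0 of them did a gene 2-fold or more apart change direction, but some folds under that limit crossed 1, such as Il33 in mesenchymal cells (1.67, lowest 0.593) and Il1b in macrophages (1.00, from 0.619 to 4.12). These values covered only the mesenchymal, endothelial, mural and macrophage classes. Elsewhere directions did change: cartilage Saa3, lower in the Lmx1b library, became 3.16-fold higher without the highest 1% of cells, with 5 and 1 UMIs left. Hp and Slpi in M0 turned without the 9 cells. Lmx1b over Pdgfra, mesenchymal Saa3 ran from 4.37-fold to 148.7-fold, Hp from 2.90-fold to 11.8-fold and Slpi from 1.40-fold to 3.81-fold, mural Hp from 2.11-fold to 12.2-fold and macrophage Slpi from 5.46-fold to 52.9-fold. No paired analysis was possible because each line has 1 library. Depth limits what is said of genes with few UMIs: Il33 had 117 and 59 in all kept cells, and Lcn2 9 and 8 in mesenchymal cells.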
